A study of Mus musculus with 6 samples.

Results

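The matrix metalloproteinases (MMPs), the ADAMs, the ADAMTS proteases and the ADAMTS-like proteins (ADAMTSL) form 4 related gene subfamilies, and 70 of the 17761 genes in the deposited table belong to them. Members were taken by symbol alone, as every gene whose name starts with Mmp, Adam, Adamts or Adamtsl followed by a digit, which gave 21 MMP, 26 ADAM, 18 ADAMTS and 5 ADAMTSL genes. No measured value entered that rule, but the family was chosen with earlier results of these data known. RNA-seq was done on 3 Model and 3 Control mouse samples. In the Model, the inferior vena cava (IVC), the main vein draining the lower body, was tied off surgically, and the vein was collected with its thrombus 24 h later. The labels name the tissue of all 6 samples as thrombus and do not say how the Control animals were treated, nor do they give strain, sex or age. Whether the 3 samples of a group are 3 animals is not stated either. The p-values therefore rest on the spread among these libraries, which may not be the spread among animals. Pairs of libraries of a group differed beyond counting error, with a chi-square per degree of freedom of 146 to 377.

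MMPs are zinc proteases, secreted or held on the cell surface, that are made as inactive precursors and cleave collagens, other matrix proteins and signalling proteins. ADAMs are membrane proteins, many of which shed the outer parts of receptors, adhesion molecules and growth factor precursors. ADAMTS enzymes are secreted, carry thrombospondin repeats and cut proteoglycans such as versican, procollagens or von Willebrand factor, while ADAMTSL proteins have the repeats without the protease domain and sit in the matrix beside fibrillin. In resolving venous thrombi, MMPs and plasmin are known for remodelling the clot and the vein wall.

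The libraries held 26924668, 28193281 and 25336173 counts in Model 1 to 3 and 36640756, 38118463 and 31924426 counts in Control 1 to 3, and 56 to 64 of the 70 genes had at least 1 count in a given library. Markers of blood cells separated the groups. Summed platelet markers reached 989, 902 and 410 CPM (counts scaled to a common library size) in the Model libraries, against 147, 50.2 and 68.1 CPM in the Control libraries, and 7 of 7 were higher in the Model by the test used throughout, the quasi-likelihood test of edgeR at a Benjamini-Hochberg adjusted p below 0.05. Summed red cell markers were at 4894 to 28674 CPM in Model and at 322 to 446 CPM in Control, although the tissue label of both groups is thrombus. Single libraries stood apart on some lists. Model 2 had 4648 CPM of hepatocyte markers against 32.2 to 537 CPM in the other 5. Control 1 had 1312 CPM of T cell markers against 194 to 709 CPM in the others. Model 3 was the lowest Model library for platelet markers (410 CPM), red cell markers (4894 CPM) and smooth muscle markers (1091 CPM, against 2428 and 2646 CPM in Model 1 and 2).

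A catalytic zinc site was looked for in the coding sequence of each gene. Its presence shows that the site is encoded, and protease activity was not measured. In the site, 3 histidines hold the zinc ion and a glutamate beside the first histidine takes part in catalysis. The site is shown for the 10 genes that rose in the Model and contain it, 5′ to 3′ on the coding strand, from GENCODE M21 transcripts on GRCm38, with the 3 histidine codons and the glutamate codon in capitals.
Mmp8: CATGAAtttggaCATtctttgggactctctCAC
Mmp9: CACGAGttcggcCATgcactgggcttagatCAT
Mmp14: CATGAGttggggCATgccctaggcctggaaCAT
Mmp19: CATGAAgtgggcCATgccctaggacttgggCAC
Adam8: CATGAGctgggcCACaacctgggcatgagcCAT
Adam9: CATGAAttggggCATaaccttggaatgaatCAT
Adamts1: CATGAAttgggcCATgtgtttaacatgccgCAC
Adamts4: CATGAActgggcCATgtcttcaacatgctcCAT
Adamts9: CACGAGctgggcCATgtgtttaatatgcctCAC
Adamts15: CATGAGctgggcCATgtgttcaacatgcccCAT

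Of the 70 genes, 55 contained the 33-base pattern in frame, namely 21 of 21 MMPs, 16 of 26 ADAMs, 18 of 18 ADAMTS genes and 0 of 5 ADAMTSL genes. The 10 ADAMs without it were Adam2, Adam3, Adam4, Adam5, Adam6a, Adam6b, Adam11, Adam22, Adam23 and Adam32. The pattern lay within 1 exon in 21 of 21 MMPs and 15 of 16 ADAMs, and was split over 2 exons in 18 of 18 ADAMTS genes. In Mmp8 it lay in exon 5 (chr9:7563086-7563118, plus strand), in Mmp9 in exon 8 (chr2:164951133-164951165, plus strand), and in Adam8 in exon 11 (chr7:139987893-139987925, minus strand). Between the 10 printed sites, pairs from the same subfamily had 20 to 30 identical bases of 33 (median 25, 13 pairs), and pairs from different subfamilies had 17 to 25 (median 20, 32 pairs). Adamts4 and Adamts15 had the most alike pair, with 30 identical bases.

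Of the 70 genes, 50 had enough reads to be tested, and 13 of these passed the test, 11 higher and 2 lower in the Model. Over all 13907 tested genes, 4.07% passed, 2.71% higher and 1.36% lower. The genes that rose were Mmp8, Mmp9, Mmp14, Mmp19, Adam8, Adam9, Adamts1, Adamts4, Adamts9, Adamts15 and Adamtsl4, and those that fell were Adam23 and Adamtsl3. By subfamily, 4 of 16 tested MMPs rose and 0 fell, 2 of 15 ADAMs rose and 1 fell, 4 of 14 ADAMTS genes rose and 0 fell, and 1 of 5 ADAMTSL genes rose and 1 fell. At an unadjusted p below 0.05, 0 MMPs were lower by edgeR, 1 by DESeq2 and 1 by limma-voom. For ADAMTS genes, 2 were lower by edgeR, 2 by DESeq2 and 1 by limma-voom at that unadjusted level. At the adjusted threshold 0 MMPs were lower by DESeq2 or limma-voom, while 1 ADAMTS gene was lower by DESeq2 and 0 by limma-voom. The median log2 fold change, Model over Control, was 0.69 for MMPs, 0.02 for ADAMs, 1.01 for ADAMTS genes and 0.74 for ADAMTSL genes, beside -0.01 for all tested genes. Among tested genes with the zinc pattern, 10 of 39 rose and 0 fell, while of those without it 1 of 11 rose and 2 fell. These counts describe the genes that passed the filter on low counts, which 2 members met with all 3 libraries of the Model only and 4 with all 3 of Control only, and the difference between subfamilies was not tested.

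**Figure D1:**
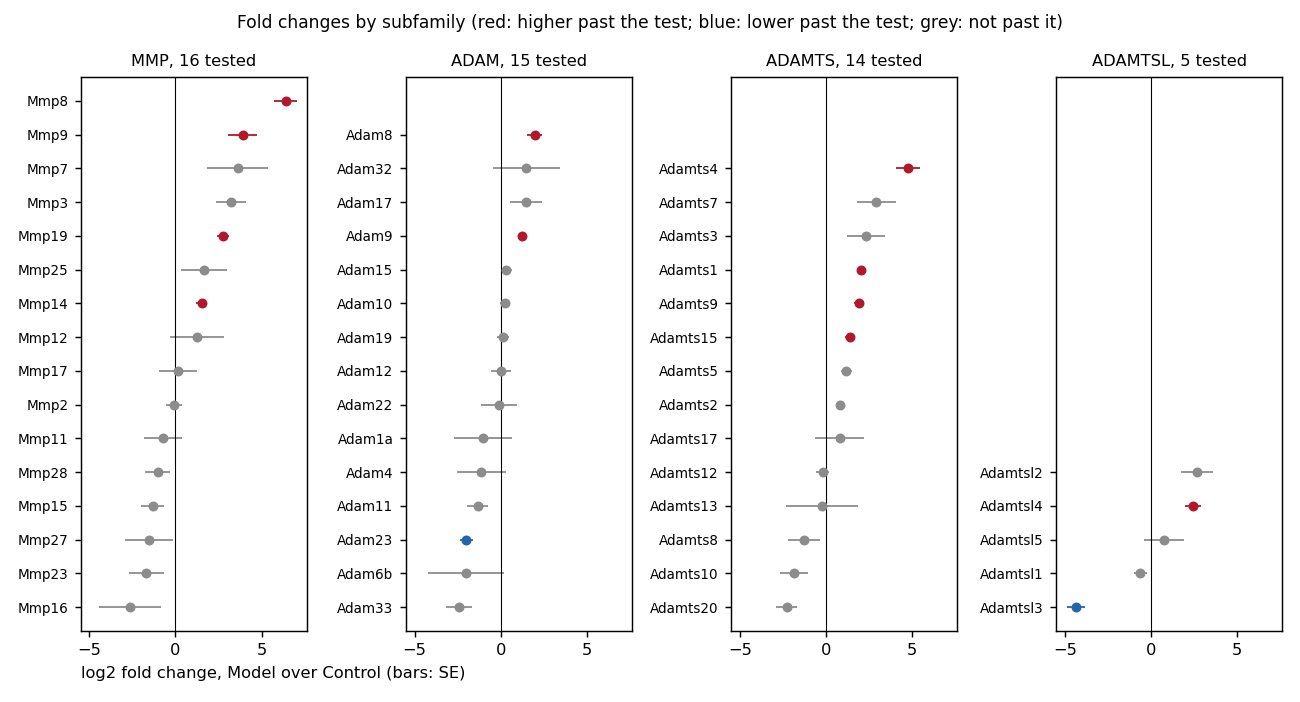
Log2 fold change, Model over Control, of the 50 tested genes, 1 panel per subfamily, with bars for the standard error and colours for genes past the test. The median was 0.69 for MMPs and 0.02 for ADAMs, and Mmp8 at 6.39 and Adamtsl3 at -4.37 were the extremes.

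In 17 of the 50 tested genes all 3 Model libraries lay above all 3 Control libraries, and in 7 they lay below. Over all tested genes 12.1% lay above and 11.4% below. At an unadjusted p below 0.05 there were 21 of the 50, beside 15.8% of all tested genes. The estimated changes were also wider in the family, with a median absolute log2 fold change of 1.47 against 0.57 over all tested genes. Scatter at low counts enters such values, and the SEs of the 50 genes ran from 0.22 (Adam9) to 2.19 (Adam6b). Genes of like level were not compared. The tissue is a mixture, so in each result that follows fewer cells of a type and less RNA per cell cannot be told apart.

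**Figure D2:**
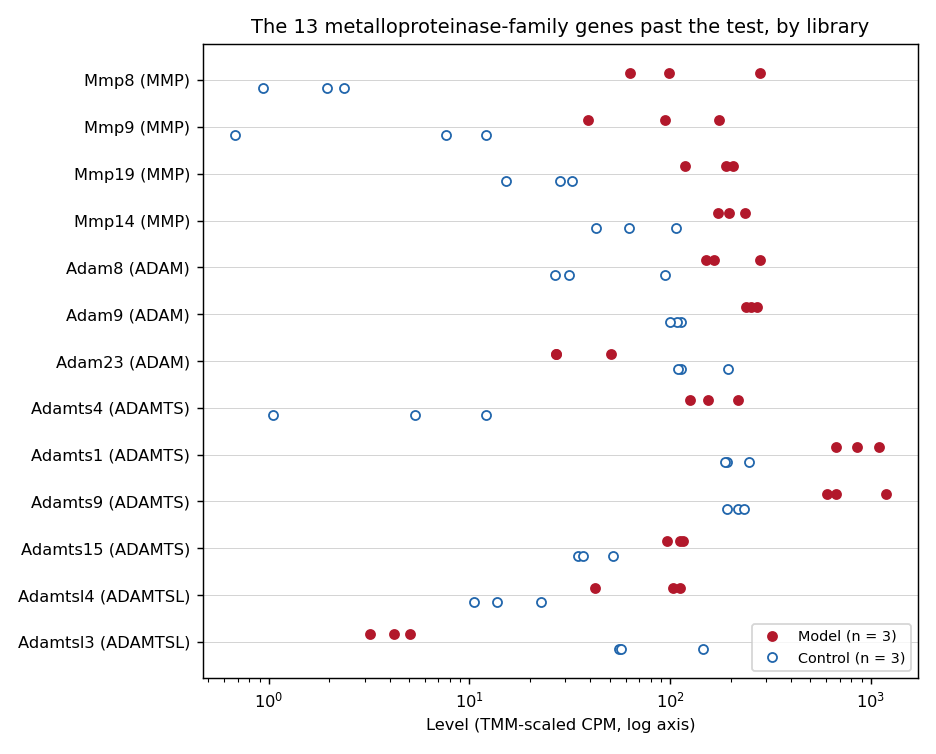
Level of the 13 genes past the test in each library, as CPM on a log axis, with Model points filled and Control points open, and genes grouped by subfamily. In each of the 13 the groups do not overlap, and Adam23 and Adamtsl3 are the genes with the Model libraries on the left.

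Among the MMPs past the test, the collagenase of neutrophil granules had the largest change. Gene positions are from GENCODE M21 on GRCm38. Mmp8 (ENSMUSG00000005800, chr9:7558456-7568485, plus strand), which cuts fibrillar collagen, was at 62.9, 280 and 99.1 CPM in Model 1 to 3 and at 0.934, 2.36 and 1.94 CPM in Control 1 to 3. The lowest Model library was far above the highest Control library, and Model 2 was the highest of all. The log2 fold change was 6.39 (SE 0.65, adjusted p = 1.59e-04, edgeR quasi-likelihood test), and it was 5.52 (adjusted p = 2.28e-04) without Model 2. With limma-voom the adjusted p was 0.0604. The other collagenase in the table, Mmp13, had 0, 92 and 76 counts in the Model libraries and 0 counts in each Control library, where 0 counts allow up to 0.0730 to 0.0883 CPM, and it was too low to be tested. Only counting error is covered by such limits.

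The gelatinases, which degrade denatured collagen and basement membrane, did not move together. Mmp9 (ENSMUSG00000017737, chr2:164940780-164955850, plus strand), the form made by neutrophils and activated macrophages, was at 39.1, 174 and 94.2 CPM in Model and at 0.679, 7.62 and 12.1 CPM in Control. Its groups did not overlap, but Control 1 was far below the other Controls. It rose by 3.91 on the log2 scale (SE 0.84, adjusted p = 0.0215), a call that was lost without Model 2 (3.28, adjusted p = 0.0647), while without Control 3 the log2 fold change was 4.62. Mmp2, the form made by stromal cells, was at 72.2, 84.5 and 39.7 CPM in Model and at 31.7, 67.4 and 110 CPM in Control (log2 fold change -0.09, SE 0.45, adjusted p = 0.959), so its groups overlapped over most of their range.

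Mmp3, or stromelysin, which cleaves many matrix proteins and activates other MMPs, was at 39.9, 161 and 104 CPM in Model and at 0.793, 11.9 and 19.8 CPM in Control. All 3 Model libraries were above the Controls, yet the spread within each group was wide and the test was missed (log2 fold change 3.23, SE 0.85, adjusted p = 0.0564). It passed without Control 1 (adjusted p = 0.0424) and without Control 3 (0.0251). Mmp10, the second stromelysin, rested on 1 library, with 1, 1 and 217 counts in Model and 0 counts in each Control. Matrilysin, Mmp7, was at 16.0, 10.1 and 0.197 CPM in Model and at 0.170, 0.170 and 1.80 CPM in Control (log2 fold change 3.62, SE 1.76, adjusted p = 0.347), with Model 3 down among the Controls. The macrophage elastase Mmp12 had 8, 1040 and 9 counts in Model and 178, 45 and 351 counts in Control, so that nearly all of its Model counts came from Model 2.

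Of the membrane-type MMPs, 1 of 5 tested passed. Mmp14, which cleaves collagen at the cell surface and activates the Mmp2 precursor, was at 236, 197 and 173 CPM in Model and at 42.9, 62.4 and 107 CPM in Control. The groups were apart, with Control 3 nearest to the Model. It rose by 1.51 on the log2 scale (SE 0.33, adjusted p = 0.0226), and the call was lost without Control 1 (adjusted p = 0.0663), Control 2 (0.0661) or Model 1 (0.0921). Mmp25, a membrane-type MMP of neutrophils, was at 0.485, 9.47 and 20.2 CPM in Model and at 1.50, 5.62 and 2.44 CPM in Control, with overlapping groups (log2 fold change 1.65, adjusted p = 0.623). Mmp16 also overlapped (log2 fold change -2.65, SE 1.79, adjusted p = 0.534).

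Mmp19 (ENSMUSG00000025355, chr10:128790910-128800824, plus strand), a widely made secreted MMP that cleaves basement membrane proteins, was at 189, 118 and 206 CPM in Model and at 15.1, 28.1 and 32.3 CPM in Control. Its groups were well apart and no library stood out. Its rise of 2.76 on the log2 scale (SE 0.36, adjusted p = 9.91e-04) lay between 2.49 and 2.98 when libraries were left out singly. Tmem198b, on the opposite strand, shares 22.3% of the exon bases of Mmp19, and had 643, 545 and 628 counts in Model and 656, 809 and 352 counts in Control. With no strand setting stated, reads of the shared bases cannot be told apart. Mmp23 (log2 fold change -1.71, adjusted p = 0.462) and Mmp27 (-1.53, adjusted p = 0.677) had the most negative values among the remaining MMPs, and neither passed.

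Most tested markers of neutrophils rose in the Model, as did Mmp8 and Mmp9. Of 10 listed neutrophil markers, 8 were in the table and 6 were tested, of which 5 rose, and their summed level was 2039, 5924 and 1974 CPM in Model and 27.6, 46.1 and 102 CPM in Control. Model 2 was highest for the sum as it was for Mmp8, Mmp9 and Adam8. It was also highest for Mmp3 (161 CPM), Mmp12 (37.9 CPM), Adamts5 (239 CPM) and the hepatocyte markers. Model 1 and 3 had close sums (2039 and 1974 CPM). Mmp8 (62.9 and 99.1 CPM) and Mmp9 (39.1 and 94.2 CPM) were higher in Model 3. In Control, Mmp9 was highest in Control 3, as the sum was, but Mmp8 in Control 2 (2.36 CPM). Adam8 went the other way there, with its highest level in Control 1 (94.6 CPM), where the neutrophil sum was lowest. S100a8, an abundant calcium-binding protein of neutrophils, was at 743, 1788 and 611 CPM in Model and at 10.6, 12.2 and 30.9 CPM in Control. Ly6g, the defining surface marker, had 1, 337 and 147 counts in Model and 0 counts in each Control. Camp, a granule peptide, had 1, 0 and 0 counts in Model and 0, 48 and 0 counts in Control. Ltf, the tested marker that missed the test, was at 8.44, 11.9 and 12.6 CPM in Model and at 0.0566, 1.44 and 4.06 CPM in Control (log2 fold change 2.57, adjusted p = 0.410, edgeR quasi-likelihood test). The part of neutrophil content in the rise of Mmp8, Mmp9 and Adam8 was not tested. For monocytes and macrophages, another source of these enzymes, 1 of 8 tested markers rose (Cd14). Their summed level was 739 to 1281 CPM in Model and 815 to 1644 CPM in Control, with overlap.

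**Figure D3:**
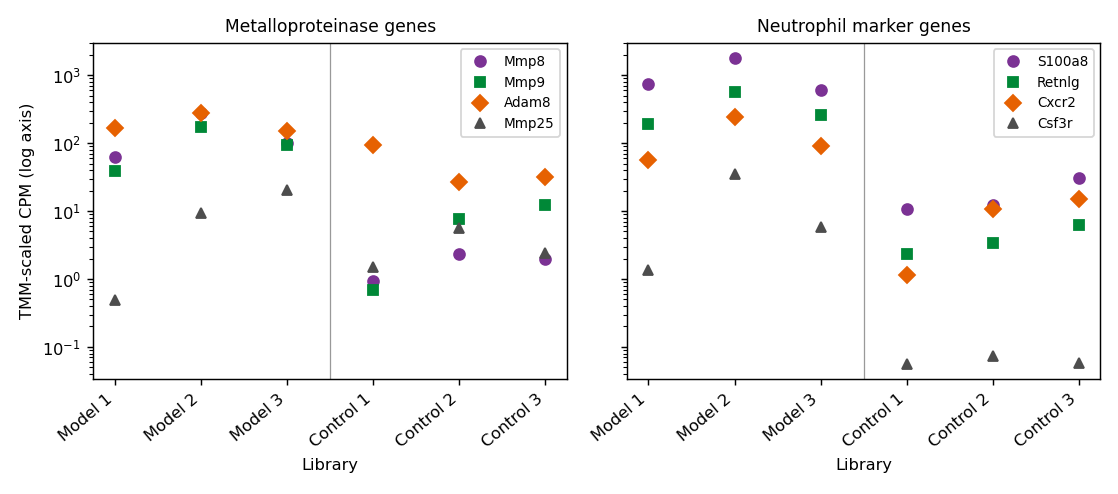
Level of 4 metalloproteinase genes (left) and 4 neutrophil markers (right) in each library, as CPM on a log axis, with Model libraries left of the line and Control libraries right of it. Mmp8, Mmp9 and Adam8 are highest in Model 2, as are the 4 markers, while Mmp25 is highest in Model 3. The marker Ltf, not drawn, was also highest in Model 3 (12.6 CPM).

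In the ADAM subfamily, 2 enzymes rose and 1 protein without a zinc site fell. Adam8, a shedding enzyme of leukocytes, was at 166, 281 and 151 CPM in Model and at 94.6, 26.8 and 31.4 CPM in Control. Control 1 was far above the other Controls and still below the lowest Model library. Adam8 rose by 1.97 on the log2 scale (SE 0.45, adjusted p = 0.0299), and by 2.76 (adjusted p = 0.0032) without Control 1, while the call was lost without Control 2 (0.0709), Control 3 (0.0781), Model 1 (0.0781) or Model 2 (0.0951).

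Adam9 (ENSMUSG00000031555, chr8:24949611-25016927, minus strand), a widely made enzyme that binds integrins and sheds growth factor precursors, had the smallest standard error of the 50 tested genes. It was at 239, 253 and 270 CPM in Model and at 114, 108 and 99.9 CPM in Control, so the libraries of each group lay close together and the groups far apart. It rose by 1.24 on the log2 scale (SE 0.22, adjusted p = 0.0075), and the values with a library left out ran from 1.19 to 1.28.

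Adam23, which lacks the zinc site and is best known as a neuronal receptor of the secreted protein LGI1, was at 27.0, 27.1 and 50.8 CPM in Model and at 195, 113 and 110 CPM in Control. All Model libraries lay below all Controls, and Control 1 was highest. It fell by 1.99 on the log2 scale (SE 0.37, adjusted p = 0.0090), a call that was missed without Model 1 (-1.84, adjusted p = 0.0517). The other 2 proteins of this kind did not pass: Adam11 was at 3.96, 24.9 and 27.7 CPM in Model and at 54.7, 47.8 and 40.1 CPM in Control (log2 fold change -1.33, adjusted p = 0.321), and Adam22 overlapped between groups. Schwann cell markers, which could accompany a neuronal receptor, summed to 324, 183 and 142 CPM in Model and 459, 448 and 229 CPM in Control, with 1 of 5 past the test (lower). Lymphocyte markers were also lower in the Model. T cell markers summed to 347, 344 and 194 CPM in Model and 1312, 489 and 709 CPM in Control, with 5 of 8 past the test (lower). B cell markers summed to 488, 375 and 264 CPM in Model and 1460, 836 and 1031 CPM in Control, with 4 of 8 tested rows, which cover 7 symbols, past the test (lower). Control 1 was highest for both sums, as it was for Adam23 and Adamtsl3. The part of these markers in the fall of Adam23 and Adamtsl3 was not tested.

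Adam10 and Adam17, the sheddases with the most known substrates, did not pass. Adam10, which cleaves Notch receptors and the platelet collagen receptor, was at 290, 264 and 159 CPM in Model and at 205, 180 and 216 CPM in Control (log2 fold change 0.25, SE 0.26, adjusted p = 0.739), with overlap. Adam17, which releases TNF, was at 10.8, 15.9 and 15.1 CPM in Model and at 3.88, 8.50 and 2.97 CPM in Control. Its groups did not overlap, but its level was low and the test was missed (log2 fold change 1.45, SE 0.93, adjusted p = 0.505). Adam33, an ADAM of smooth muscle and other mesenchymal cells, was at 4.73, 13.04 and 1.62 CPM in Model and at 27.6, 34.2 and 42.1 CPM in Control (log2 fold change -2.42, SE 0.77, adjusted p = 0.117), and passed without Model 2 (-3.45, adjusted p = 0.0439). Summed smooth muscle markers, at 2428, 2646 and 1091 CPM in Model and 4544, 4338 and 2923 CPM in Control, were also lower in each Model library, with 0 of 7 past the edgeR test, 3 lower at an unadjusted p below 0.05, and 2 lower by each of DESeq2 and limma-voom. Their part in the values of Adam33 was not tested. Adam15 (log2 fold change 0.34, adjusted p = 0.701) and Adam32 (1.49, adjusted p = 0.799) overlapped, and Adam6b, a near copy of Adam6a whose reads may be shared, had at most 1.44 CPM in any library (log2 fold change -2.00, adjusted p = 0.747).

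The ADAMTS proteoglycanases, which cut versican and aggrecan, held all 4 ADAMTS genes that passed, 4 of the 7 tested. Adamts1 (ENSMUSG00000022893, chr16:85793827-85803113, minus strand) had the highest mean level per length of the 70 genes in the Model. It was at 1101, 856 and 669 CPM in Model and at 193, 187 and 246 CPM in Control. Every Model library was far above every Control. The log2 fold change was 2.07 (SE 0.27, adjusted p = 8.72e-04) and ran from 1.86 to 2.23 with a library left out.

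Adamts4, or aggrecanase-1 (ENSMUSG00000006403, chr1:171250421-171260637, plus strand), was at 155, 126 and 219 CPM in Model and at 1.05, 5.36 and 12.1 CPM in Control. Its groups were widely apart, while the Controls differed among themselves. It rose by 4.76 on the log2 scale (SE 0.69, adjusted p = 0.0019), and by 5.70 without Control 3.

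Adamts9 (ENSMUSG00000030022, chr6:92772699-92943492, minus strand), a proteoglycanase with a long chain of thrombospondin repeats, was at 1189, 671 and 608 CPM in Model and at 217, 233 and 193 CPM in Control. Model 1 was highest and the groups did not overlap. It rose by 1.94 on the log2 scale (SE 0.29, adjusted p = 0.0025). A730049H05Rik, which shares 9.18% of its exon bases on the opposite strand, had 310, 383 and 267 counts in Model and 5, 27 and 6 counts in Control, and reads of the shared bases cannot be assigned without a strand setting. Adamts15, a versican-cleaving enzyme, was at 96.8, 116 and 112 CPM in Model and at 52.0, 34.6 and 36.8 CPM in Control (log2 fold change 1.40, SE 0.31, adjusted p = 0.0258). Its groups were apart, but the call was lost without Control 2 (0.105), Control 3 (0.106), Model 1 (0.0558), Model 2 (0.0861) or Model 3 (0.0811).

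Adamts5, aggrecanase-2 and the neighbour of Adamts1 on chromosome 16, was at 134, 239 and 121 CPM in Model and at 58.3, 86.9 and 71.6 CPM in Control. Each Model library was above each Control, and the test was just missed (log2 fold change 1.19, SE 0.31, adjusted p = 0.0552), while without Model 3 it passed (0.0438). Adamts20, which takes part in pigment cell migration in mice, was at 20.04, 8.74 and 6.46 CPM in Model and at 98.5, 47.0 and 24.2 CPM in Control (log2 fold change -2.27, SE 0.62, adjusted p = 0.0649), with Control 1 highest, and it passed without Control 3 (0.0301). Adamts8 overlapped (log2 fold change -1.27, adjusted p = 0.575).

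Of the other ADAMTS enzymes, the procollagen propeptidase Adamts2 was at 171, 165 and 161 CPM in Model and at 100, 77.7 and 100 CPM in Control, apart but short of the threshold (log2 fold change 0.84, adjusted p = 0.0808). Adamts3, a second propeptidase, had a log2 fold change of 2.33 (adjusted p = 0.341) with overlap. Adamts7, which cleaves the cartilage protein COMP, was at 38.7, 6.23 and 18.6 CPM in Model and at 0.311, 3.68 and 4.30 CPM in Control (log2 fold change 2.94, SE 1.11, adjusted p = 0.200). Adamts10, a fibrillin-binding ADAMTS, was at 5.78, 6.15 and 3.70 CPM in Model and at 22.9, 16.8 and 16.8 CPM in Control (log2 fold change -1.85, adjusted p = 0.284). Adamts13, which cuts von Willebrand factor and is made mainly in the liver, had 2, 64 and 20 counts in Model and 1, 139 and 9 counts in Control (log2 fold change -0.20, SE 2.09, adjusted p = 0.983). Its libraries differed more within each group than the groups did.

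Of the 5 ADAMTSL genes, 1 fell and 1 rose. Adamtsl3 (ENSMUSG00000070469, chr7:82335694-82614450, plus strand), a secreted matrix glycoprotein, was at 5.05, 4.22 and 3.19 CPM in Model and at 146, 55.9 and 56.6 CPM in Control. The Model libraries were close to each other and far below the Controls, of which Control 1 was highest. It fell by 4.37 on the log2 scale (SE 0.53, adjusted p = 5.51e-04), and the value was -3.77 (adjusted p = 0.0038) without Control 1 and had an adjusted p of 0.0731 with limma-voom. Adamtsl4, a fibrillin-binding protein known from lens dislocation in humans, was at 113, 103 and 42.3 CPM in Model and at 22.8, 13.7 and 10.5 CPM in Control. Model 3 lay nearest to the Controls. It rose by 2.45 on the log2 scale (SE 0.48, adjusted p = 0.0127), and the call was lost without Model 1 (2.20, adjusted p = 0.0654).

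The remaining ADAMTSL genes did not pass. Adamtsl2, another fibrillin-associated protein, was at 58.2, 15.3 and 13.04 CPM in Model and at 0.906, 5.84 and 7.04 CPM in Control (log2 fold change 2.65, SE 0.93, adjusted p = 0.166), with all Model libraries above the Controls and Model 1 well above the rest. Adamtsl1 (log2 fold change -0.62, adjusted p = 0.469) and Adamtsl5 (0.74, adjusted p = 0.837) overlapped. Fibroblast markers, as a measure of the cells that make matrix proteins, summed to 1428, 1714 and 1388 CPM in Model and 1569, 1531 and 2725 CPM in Control, so the groups overlapped, and 1 of 7 markers passed (lower).

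Levels of different genes were compared per length, as RPKM (CPM divided by the exon length in kilobases). The 70 genes together had 831 ± 110 RPKM in Model and 346 ± 28.1 RPKM in Control (mean ± SD, n = 3 each), while the sum over the whole table ran from 245637 to 278714 RPKM in Model and from 204363 to 231514 RPKM in Control. MMPs summed to 276 ± 91.1 RPKM in Model and 81.1 ± 23.6 RPKM in Control. ADAMTS genes summed to 315 ± 59.7 RPKM in Model and 96.3 ± 3.08 RPKM in Control. ADAMs, the subfamily with the highest sum in Control, were at 210 ± 23.9 RPKM in Model and 147 ± 22.2 RPKM in Control. The groups did not overlap in these 3 sums of RPKM, but the ADAM sum not divided by length did overlap, at 1021 to 1237 CPM in Model and 757 to 1084 CPM in Control. The RPKM sums overlapped for ADAMTSL genes, at 29.9 ± 13.02 RPKM in Model and 21.5 ± 7.90 RPKM in Control.

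**Figure D4:**
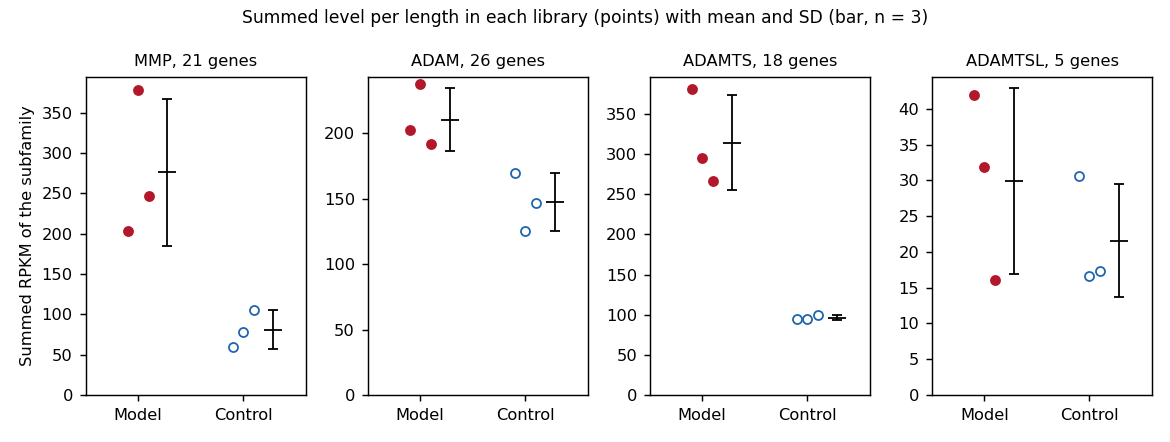
Summed RPKM of each subfamily in each library (points), Model left and Control right, with the mean and SD of the 3 libraries as a bar and a separate axis from 0 in each panel. MMP and ADAMTS sums in Model lie clear of Control (276 against 81.1 and 315 against 96.3 RPKM), and the ADAMTSL sums overlap.

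The order of single genes by RPKM differed between the groups. In the Model, Adamts1 stood first at 165 ± 40.8 RPKM, followed by Adam9 (61.7 ± 3.79), Mmp8 (60.8 ± 48.0), Mmp3 (56.4 ± 33.5), Adamts9 (54.7 ± 21.2), Adam10 (48.4 ± 14.1) and Mmp19 (48.4 ± 13.2). Only the step from Adamts1 to Adam9 was larger than the SDs of the genes it separates. In Control, Adam10 (40.8 ± 3.74 RPKM) and Adamts1 (39.3 ± 6.09 RPKM) stood first and did not differ beyond their spread, followed by Adam9 (26.1 ± 1.67) and Mmp2 (20.7 ± 11.7). Within the MMP sum, Mmp8 took 22.0% in Model and 0.888% in Control, and Mmp2 took 7.04% in Model and 25.5% in Control.

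On chromosome 9, 8 MMP genes lie within 427072 bases (chr9:7272514-7699585, GRCm38), in the order Mmp13, Mmp12, Mmp3, Mmp10, Mmp8, Mmp27, Mmp20 and Mmp7. Of these, 5 were tested and Mmp8 alone passed. AP-1 factors such as FOS and JUN are known to bind the letters TGANTCA in MMP promoters, so these letters were searched on both strands in RefSeq promoters (GRCm38.p6, 250 bases before to 50 after the start). Of the 8 genes, 6 held them in at least 1 promoter, 75% against 8.97% of 27025 genes counted the same way. Mmp12 and Mmp7 had 2 promoters each in that table, 1 with the letters and 1 without, and the window of Mmp7 shown is the one with them. The promoter windows are shown because the letters are present in neighbours that missed the test or could not be tested and absent in Mmp8, in the direction of transcription from 95 bases before to 10 bases after the start, with the match in capitals. All are on the plus strand.
Mmp13 (chr9:7272419-7272523): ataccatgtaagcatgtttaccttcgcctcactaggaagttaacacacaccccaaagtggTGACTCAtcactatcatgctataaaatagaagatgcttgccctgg
Mmp3 (chr9:7445727-7445831): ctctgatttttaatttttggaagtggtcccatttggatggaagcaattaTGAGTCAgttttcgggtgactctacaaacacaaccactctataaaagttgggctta
Mmp10 (chr9:7502247-7502351): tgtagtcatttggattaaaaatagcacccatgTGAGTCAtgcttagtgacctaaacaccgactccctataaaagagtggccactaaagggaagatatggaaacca
Mmp7 (chr9:7691995-7692099): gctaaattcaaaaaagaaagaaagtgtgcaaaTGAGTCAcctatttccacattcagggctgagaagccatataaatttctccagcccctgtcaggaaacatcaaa
Mmp8 (chr9:7558334-7558438): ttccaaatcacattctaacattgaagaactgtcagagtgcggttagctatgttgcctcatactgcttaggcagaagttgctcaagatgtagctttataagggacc

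The match began 35 bases before the start in Mmp13, 46 in Mmp3, and 63 in both Mmp10 and Mmp7, and Mmp12 and Mmp20 also held one. Mmp8 and Mmp27 held none in 300 bases. Of the 13 genes past the test, 8 had a promoter in the table (Mmp8, Mmp14, Adam8, Adam23, Adamts1, Adamts9, Adamtsl3 and Adamtsl4), and 0 of the 8 held these letters, beside 8 of all 42 members with a promoter. The NF-kB motif was in 1 of these 8 (Adamts9) and in 7 of 42 members (16.7%), against 9.55% of all genes. The RUNX letters TGTGGT were in 1 of the 8 (Mmp14) and in 11 of 42 members (26.2%), against 18.9%, and the ETS letters CCGGAAGT were in 0 of 42, against 4.31%. A match describes the letters only.

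The 20 genes that could not be tested were Mmp10, Mmp13, Mmp20, Mmp21, Mmp24, Adam2, Adam3, Adam5, Adam6a, Adam20, Adam21, Adam24, Adam26a, Adam26b, Adam28, Adam30, Adamts6, Adamts16, Adamts18 and Adamts19. Many are ADAMs of sperm and testis. Adam30 had 94 counts in Model 2 and at most 4 in any other library, and Adam5 had 226 counts in Control 3 and at most 26 elsewhere. Mmp24 rested on 1 library of each group, with 3, 2 and 89 counts in Model and 4, 135 and 6 counts in Control. Adamts6, a fibrillin-associated enzyme, had 0 counts in each Model library, which allows up to 0.109 to 0.121 CPM, and 90, 2 and 4 counts in Control. Adam26a and Adam26b, which may share reads, had at most 2 counts in any library.

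Inhibitors, activators, partners and substrates of these enzymes were read from 7 lists with 56 genes in the table. Of 53 tested, 8 rose (15.1%) and 1 fell (1.89%), beside 2.71% and 1.36% of all tested genes, with a median log2 fold change of 0.18. At the shares of all genes, a list of a few genes would hold few calls or none. Such counts therefore say little about a single list. Among 7 inhibitors, Timp1 alone passed. Timp1 blocks most MMPs and was at 59.6, 58.9 and 144 CPM in Model and at 1.05, 1.12 and 1.15 CPM in Control, so that the lowest Model library was far above any Control (log2 fold change 6.30, adjusted p = 6.00e-05). Timp3, the inhibitor that also blocks ADAM17 and ADAMTS enzymes, was at 484, 480 and 458 CPM in Model and at 532, 695 and 697 CPM in Control, below each Control but not past the test (log2 fold change -0.44, adjusted p = 0.393). Timp2 (-0.87, adjusted p = 0.192) and Timp4 (-0.17, adjusted p = 0.927) did not pass.

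Of 3 proprotein convertases, which remove the propeptides of ADAM, ADAMTS and membrane-type MMP precursors, Furin rose. It was at 268, 170 and 230 CPM in Model and at 45.4, 98.7 and 83.4 CPM in Control (log2 fold change 1.55, adjusted p = 0.0158), apart in every library, and the call was lost without Model 1 (0.0704). The 7 tested partners of ADAM10 and ADAM17, the tetraspanins and iRhoms that carry and steer them, gave 0 calls by edgeR, DESeq2 and limma-voom and 0 at an unadjusted p below 0.05 by any of the 3. Over all tested genes the called shares were 4.07%, 9.05% and 3.32% by these tools, and 15.8% at an unadjusted p below 0.05 by edgeR. For 7 genes, 0 calls is near such shares. Of 17 tested substrates of ADAM10 and ADAM17, 3 rose. The platelet receptors Gp1ba (log2 fold change 5.41) and Gp6 (5.65) are also on the platelet marker list, 7 of 7 of which rose, and the part of platelet content was not tested. The call of Gp6 was lost without Model 1 (4.76, adjusted p = 0.121), and that of Gp1ba with limma-voom (0.0908). Tnfrsf1a, a TNF receptor, was at 223, 182 and 321 CPM in Model and at 112, 99.2 and 91.9 CPM in Control (log2 fold change 1.26, adjusted p = 0.0187), a call that did not hold when Control 2 (0.0589), Control 3 (0.0813), Model 1 (0.0549) or Model 3 (0.0858) was left out.

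Among 8 tested substrates of ADAMTS enzymes, Vcan alone passed. Vcan encodes versican, the proteoglycan cut by Adamts1, Adamts4, Adamts5, Adamts9 and Adamts15, and was at 205, 366 and 348 CPM in Model and at 21.1, 57.2 and 56.7 CPM in Control. The groups were far apart (log2 fold change 2.77, SE 0.39, adjusted p = 0.0014). Von Willebrand factor, Vwf, was at 705, 500 and 548 CPM in Model and at 312, 413 and 286 CPM in Control (log2 fold change 0.79, adjusted p = 0.114), and the procollagen genes Col1a1, Col1a2 and Col3a1 had log2 fold changes of -0.81, -0.85 and -0.97 with adjusted p of 0.170, 0.121 and 0.0886. In the plasminogen system, which can activate MMP precursors, Plat, the tissue activator, was at 59.1, 243 and 173 CPM in Model and at 24.4, 22.8 and 24.7 CPM in Control. Its groups were apart and it rose (log2 fold change 2.72, adjusted p = 0.0039), while Lrp1, a clearance receptor for MMPs and ADAMTS enzymes, was higher in each Model library without passing (1.09, adjusted p = 0.0833). Of 6 fibrillins and latent TGF-beta binding proteins, Ltbp2 fell by 1.19 on the log2 scale (adjusted p = 0.0444), a call lost when any 1 library was left out (adjusted p from 0.0520 to 0.254).

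Across 14 other settings, 5 genes kept an adjusted p below 0.05 in every one: Adam9, Adamts1, Adamts4, Adamts9 and Mmp19. Mmp8 and Adamtsl3 lost it in 1 setting, limma-voom, Adam23 and Adamtsl4 in 2, Mmp9 in 3, Adam8 and Mmp14 in 4, and Adamts15 in 6. Of the genes that missed the test, Mmp3, Adamts5 and Adamts20 passed in 4 settings, Adam33 in 3, Adamtsl2 in 2 and Adamts7 in 1. Without Model 1, 7 genes of the family rose and 1 fell, beside 1.5% and 0.652% of all tested genes, and without both Control 1 and Model 2 the counts were also 7 and 1, beside 1.55% and 0.439%. With DESeq2, 15 rose and 4 fell, beside 4.75% and 4.3%, and with no filter on low counts 14 rose and 4 fell, beside 3.61% and 2.64%. With limma-voom, 9 rose and 1 fell, beside 2.5% and 0.827%, and with the replicate number as a block 13 rose and 3 fell, beside 2.73% and 1.41%.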

How the data were processed

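RNA was sequenced from 3 Model and 3 Control samples, grouped by their titles. Libraries from a low-input kit, after removal of ribosomal RNA, were trimmed with cutadapt 1.9.3, per the labels' protocols. Per the submitters' processing notes, the authors used mm10, STAR 2.5.1b and edgeR 3.16.5. Not given in the sources used here are the counter, the annotation and any strand setting. The authors deposited raw counts per gene, used as they stand, and 6 per-sample columns of normalized values, not used here.

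The test was edgeR 4.0.16 (R 4.3.3) on the whole table, with TMM scaling, filterByExpr with a minimum count of 10 and the quasi-likelihood F test, Model over Control, adjusted over all 13907 genes tested. The SE is the fold change divided by the root of F. CPM used TMM-scaled totals, and RPKM divided it by the merged exon length in GENCODE M21. Alternatives used DESeq2 1.42.0, limma 3.58.1 with voom, other scalings and filters, a replicate block, and libraries left out, and the steps were tested on simulated data. Named genes were each member past the test, the 3 highest per length in each subfamily, and up to 3 per direction and subfamily with the largest changes among those that missed it. Mmp2, Mmp12, Adam22, Adamts2, Adamts13, the untested members with counts given, and pathway genes that missed the test were added to these after their values were seen. The zinc pattern, planned for proteins, was searched in GENCODE coding bases as CAY GAR, 2 codons of any kind, CAY, 5 of any kind, CAY. Members and lists were chosen with earlier results of these data known. Some results that these lists and overlaps would give are not reported here.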

Additional observations from a re-analysis of the deposited data

How the results depend on the processing

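Of the 14 alternative settings, RLE scaling, upper-quartile scaling and a minimum count of 100 left the number of called members as reported. The counts of all tested genes called higher and lower, 377 and 189, were 222 and 63 without Control 1 and Model 2, 642 and 469 with no filter, and 639 and 578 with DESeq2, and 115 were lower with limma-voom. Member genes called higher, 11, were 7 without Control 1 and Model 2, and those called lower, 2, were 1 there, 4 with no filter, 4 with DESeq2 and 1 with limma-voom. MMP genes called, 4, were 2 without Control 1 and Model 2 and 2 with limma-voom. ADAMTS genes called, 4, were 8 with DESeq2. ADAMTSL genes called, 2, were 1 without Control 1 and Model 2 and 1 with limma-voom. Pathway genes called lower, 1, were 0 without Control 1 and Model 2, 0 with the replicate block, 2 with no filter and 5 with DESeq2. Leaving out 1 replicate at a time gave 221 to 312 of all genes higher and 92 to 136 lower, 7 to 11 members higher and 1 to 3 lower, 3 to 5 MMP, 1 to 3 ADAM, 3 to 4 ADAMTS and 1 to 2 ADAMTSL genes called, and 5 to 9 pathway genes higher and 0 to 0 lower. Mmp27, at -1.53, ran from -2.18 to 0.10 with 1 replicate left out and was positive without Control 1 only. The cause of these changes was not tested.

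The replicate numbers have no stated meaning. Deviations of same-numbered samples from their group means had correlations of 0.05, 0.03 and -0.01, beside -0.06 to 0.04 for samples of different number. With 3 libraries a group and a mixed tissue, such values cannot show whether same-numbered samples were paired. With the replicate block 13 members were called higher and 3 lower, adding Mmp3, Adamts5 and Adamts20. Depth limits the members with few counts, and with 3 libraries a group 1 library can decide a call. Mapping to near-identical copies and to overlapping genes on the other strand could not be checked from counts.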
